A study of Mus musculus with 6 samples.

Results

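Lysosomes take sphingolipids apart from the outside in, and 9 genes of that route are described here: Hexa, Gm2a, Psap, Galc, Asah1, Smpd1, Gla, Neu1 and Arsa. They were chosen by name, as enzymes of sphingolipid breakdown and the activator proteins that present lipids to them, with earlier results of these data known. The same holds for the gene lists below, so shares set beside those of all genes are a description only. All 9 were on the array, each with 1 transcript cluster (a set of probes for 1 gene), among 16583 genes with a name of their own. The cells were Neuro2a, a neuroblastoma line from the mouse that often stands in for neurons. Of the 6 arrays, 3 carried RNA of cells given the empty vector and 3 RNA of cells given vectors for artificial microRNAs against Usf1 and Usf2, labelled USF1,2-RNAi. USF1 and USF2 are transcription factors that bind E-box sequences, and the series asks which genes, lysosomal ones above all, lie downstream of them. Both groups are the same line in the same medium apart from the vector, which was introduced with a lipid reagent. The sample titles call the 3 arrays of each group biological replicates. The sources used here do not give the time after transfection or the share of cells that took up a vector. Nor do they say whether the replicates were separate cultures or transfections, so what the spread behind each p-value covers is not known beyond that label.

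Gangliosides, the sialic acid-bearing glycolipids of neuronal membranes, lose their sugars in sequence until ceramide is left. Beta-hexosaminidase A, whose alpha subunit is encoded by Hexa, removes N-acetylgalactosamine from ganglioside GM2 once the GM2 activator protein (Gm2a) has lifted the lipid from the membrane. The sialidase NEU1 takes off sialic acids. Alpha-galactosidase A (Gla) trims globotriaosylceramide. Arylsulfatase A (Arsa) removes the sulfate of sulfatide, a lipid of myelin, and galactocerebrosidase (Galc) removes the galactose that remains. Prosaposin (Psap) is cut into the saposins A to D, which assist several of these steps. Acid sphingomyelinase (Smpd1) makes ceramide from sphingomyelin, and acid ceramidase (Asah1) splits ceramide into sphingosine and a fatty acid. Loss of these proteins causes lysosomal storage diseases, among them Tay-Sachs, Krabbe, Fabry and Niemann-Pick disease and metachromatic leukodystrophy.

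Values are log2 signals relative to the median of the same gene over the 6 arrays, so a gene can be followed between arrays but its level is not kept and members cannot be ranked by level. Rounding steps in the numbers still show whether a gene lay at 4 to 8 or at 8 to 16 on the log2 scale before centring. By this measure 7 of the 9 members were in the brighter class, beside 7320 of all 16583 genes, while Galc and Arsa were in the dimmer one. The same class served as a check of the cell label. Of 13 measured genes of sympathetic neuroblast identity, 12 were in the brighter class, against 1 of 10 glial, 1 of 8 fibroblast, 0 of 7 macrophage and 1 of 7 endothelial markers. Averaged over each list, the relative log2 signals of the glial markers lay between -0.039 and 0.0082 on the empty vector arrays and between -0.027 and 0.12 on the knockdown arrays. The same ranges were -0.055 to 0.012 and -0.075 to 0.16 for the fibroblast, -0.057 to -0.016 and -0.050 to 0.090 for the macrophage, and -0.078 to 0.020 and -0.042 to 0.13 for the endothelial markers. In neuroblast identity, 3 of the 13 genes (23.1%) were at an unadjusted limma p under 0.05, beside 4.25% of all genes, and all 3 were lower after knockdown, beside 2.65% of all genes: Dbh, which makes noradrenaline (-0.25 ± 0.05, SE), the RNA-binding protein gene Elavl4 (-0.13 ± 0.04) and the granin Chgb (-0.15 ± 0.05). Dbh was the gene of this list in the dimmer class. Over the 13 genes, 7 changes were below 0 and 6 above, with a median of -0.031. Among those above were the granin Chga (0.052 ± 0.040, SE) and Gata3 (0.062 ± 0.048), both with 95% intervals that span 0. The part of these 13 genes in the results below was not tested. In bulk RNA, fewer cells of a kind and less RNA per cell cannot be told apart. Knockdown array 2 stood apart, with a standard deviation of 0.159 over all clusters against 0.0531 to 0.0780 on the other 5 arrays. Its dimmer clusters as a whole were shifted up, with a median of 0.071 against -0.023 to 0.0021 on the other 5. The median of its brighter clusters was -0.028. It also held the highest mean of each of the 4 marker lists of other cell types, few of whose genes were in the brighter class. Whether the shift lies behind these marker means was not tested. On knockdown arrays 1 and 3 these means lay between -0.027 and -0.0046 for glia, -0.075 and 0.0079 for fibroblasts, -0.050 and 0.041 for macrophages, and -0.042 and 0.010 for endothelium.

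Both targets of the knockdown were lower on all 3 knockdown arrays. Usf1 stood at 0.18, 0.32 and 0.43 with empty vector and at -0.28, -0.18 and -0.26 with knockdown, in relative log2 signal. Usf2 stood at 0.12, 0.28 and 0.27 against -0.22, -0.13 and -0.12. These are remaining signals of 0.682-fold for Usf1 and 0.770-fold for Usf2, so the depletion seen by the probes was partial. Over all 16583 genes the limma adjusted p was 0.320 and 0.348, and neither target passed the threshold of 0.05.

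The letters before the gene starts are shown because USF proteins bind E-boxes (CANNTG) and favour CACGTG. RefSeq starts on build GRCm38.p6 were matched by symbol for 8 of the 9 members, Asah1 being the exception, and the 250 bases before each start were searched. CACGTG, TCACGTGA and CANNTG read the same on both strands, so 1 search covers both, and each TCACGTGA holds a CACGTG and each CACGTG is a CANNTG. Of the 8 members 2 held CACGTG, beside 6.86% of 27025 genes, all starts of a gene counted together. The window of Gla held it at -227 and -194, counting the base before the start as -1, and both copies were the longer TCACGTGA. Arsa held it once, at -16. The windows of Hexa, Gm2a, Psap (2 starts), Galc, Smpd1 and Neu1 held none. Over 32851 RefSeq windows of this length, 6.02% held at least 1 CACGTG, 0.429% at least 2, and 66.2% at least 1 CANNTG. At least 1 TCACGTGA was in 0.785% and at least 2 in 0.0335%. Printed are the window of Hexa, the member with the largest change and no CACGTG, and those of the members that held it, Gla and Arsa. They are chr9:59539290-59539539 (plus strand), chrX:134601006-134601255 (minus strand) and chr15:89477425-89477674 (minus strand), each 5′ to 3′ along the gene from -250 to -1, with every CANNTG in capitals.
Hexa: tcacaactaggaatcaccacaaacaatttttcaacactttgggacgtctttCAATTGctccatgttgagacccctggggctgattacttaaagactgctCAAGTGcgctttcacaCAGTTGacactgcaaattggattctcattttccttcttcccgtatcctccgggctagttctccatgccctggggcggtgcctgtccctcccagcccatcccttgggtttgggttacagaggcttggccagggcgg
Gla: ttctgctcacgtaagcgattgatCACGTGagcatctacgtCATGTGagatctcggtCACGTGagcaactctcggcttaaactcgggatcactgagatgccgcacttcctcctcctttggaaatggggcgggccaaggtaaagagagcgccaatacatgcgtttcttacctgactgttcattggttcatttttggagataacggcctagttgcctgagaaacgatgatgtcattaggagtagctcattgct
Arsa: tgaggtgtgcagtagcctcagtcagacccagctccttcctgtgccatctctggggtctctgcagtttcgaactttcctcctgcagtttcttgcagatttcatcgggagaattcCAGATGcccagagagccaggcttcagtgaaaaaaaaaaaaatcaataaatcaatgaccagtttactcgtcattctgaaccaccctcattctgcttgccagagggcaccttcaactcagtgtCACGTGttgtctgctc
In Hexa the capitals are CAATTG at -199, then CAAGTG at -151, then CAGTTG at -135, none of them the form that USF favours. In Gla they are 2 copies of CACGTG and, between them, 1 variant (CATGTG) at -210. In Arsa they are CAGATG at -137 and CACGTG. A match is a run of letters, not a measured binding site, and the absence of a match says only that the letters are not in this window.

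**Figure D1:**
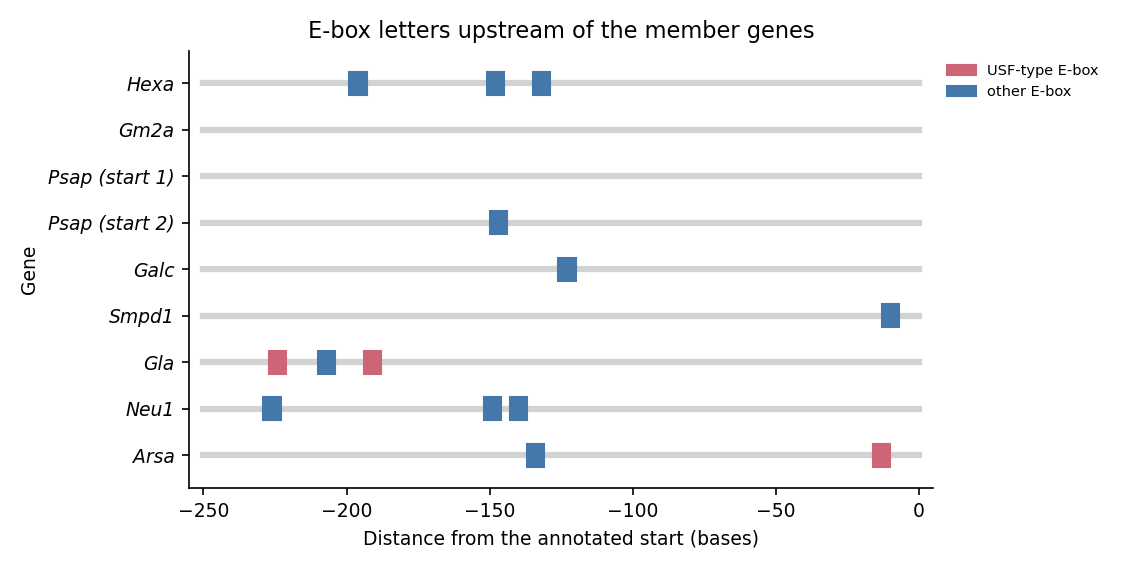
E-box letters in the 250 bases before each annotated start of the 8 members with a RefSeq window; the x axis is the distance from the start in bases, each grey bar is 1 window, red boxes are CACGTG and blue boxes other CANNTG. Red boxes appear in Gla (at -227 and -194) and in Arsa (at -16).

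Setting the knockdown arrays against the empty vector arrays asks which of these genes respond when USF is depleted. Hexa was lower on the knockdown arrays by more than the spread between replicates, and the other 8 members had changes between -0.091 (Galc) and 0.059 (Gla) on the log2 scale. In limma with Benjamini-Hochberg adjustment over all genes, 0 of the 9 passed 0.05, where 0.00603% of all genes did. At an unadjusted limma p under 0.05 there was 1 member, Hexa, or 11.1%, beside 4.25% of all genes (2.65% lower and 1.6% higher). The median change of the 9 was 7.4e-05, with 5 above 0 and 4 below, beside a median of -6.6e-04 over all genes. Groups did not overlap for 4 of the 9, beside 10.3% of all genes: Hexa and Neu1 with knockdown lower (5.95% of all genes) and Psap and Gla with knockdown higher (4.33%). The exact two-sided permutation p was 0.10 for each of these 4, the smallest that this test can give with 3 against 3 arrays.

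**Figure D2:**
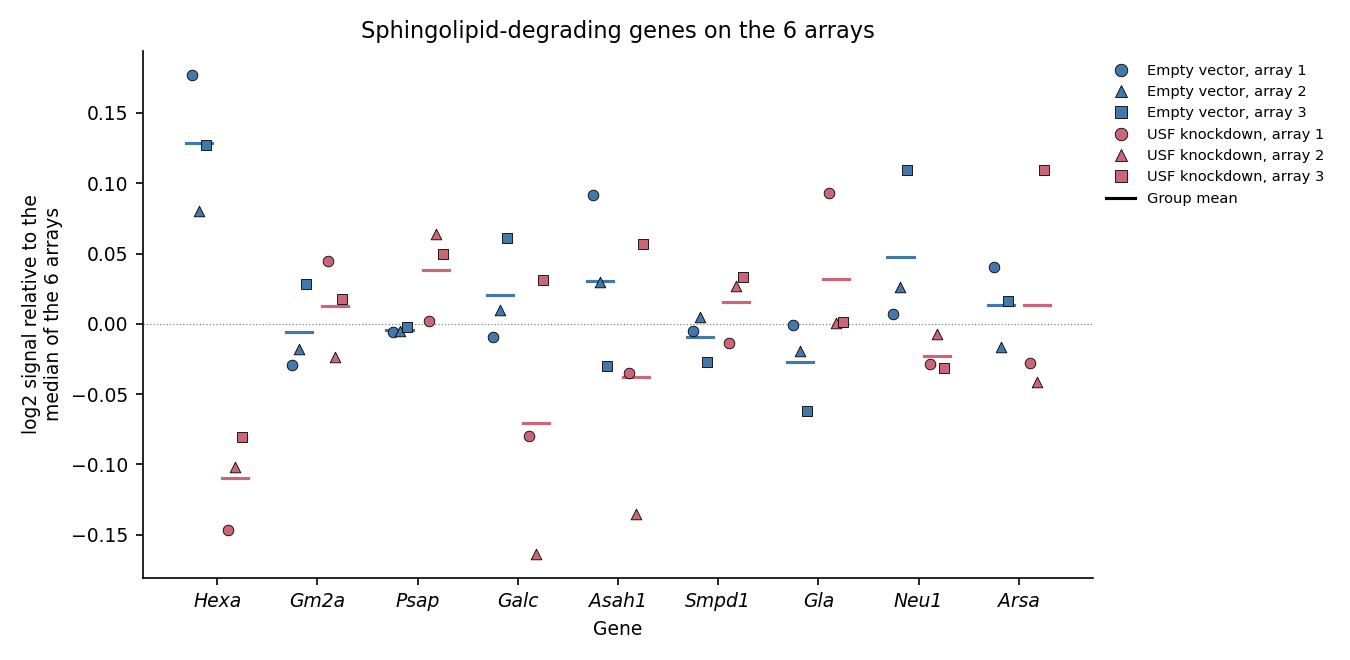
Relative log2 signal (y axis) of the 9 members (x axis) on each of the 6 arrays; colour marks the group, shape the array number, and a bar the group mean. Hexa shows the widest gap, from 0.081 to 0.18 with empty vector and from -0.15 to -0.081 with knockdown, and knockdown array 2 is the lowest point of Galc (-0.16) and Asah1 (-0.14).

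In the step from GM2 to GM3, Hexa stood at 0.18, 0.081 and 0.13 on the empty vector arrays and at -0.15, -0.10 and -0.081 on the knockdown arrays. Every knockdown array was below every empty vector array. The group means were 0.13 ± 0.05 and -0.11 ± 0.03 (SD, n = 3 each), a change of -0.24 ± 0.05 (SE), or 0.848-fold with a 95% interval of 0.789 to 0.912. Hexa had rank 22 by p among all genes in limma, fitted across all genes (unadjusted p = 8.3e-04, limma adjusted p = 0.616). Its limma adjusted p lay between 0.00293 and 1.00 over 13 alternatives, the lowest with array quality weights. Those gave knockdown array 1 a weight of 33, against at most 1.11 for any other, so that value rests in effect on 1 knockdown array. Apart from that fit, the lowest limma adjusted p of Hexa was 0.106, in the brighter class alone. The change of Hexa lay between -0.26 and -0.21 when 1 array was left out, with an unadjusted limma p under 0.05 in 6 of 6 such fits, and was -0.24 without knockdown array 2. Gm2a, the activator that HEXA needs to reach GM2, stood at -0.029, -0.018 and 0.029 with empty vector and at 0.045, -0.024 and 0.018 with knockdown. The groups overlapped, and the change was 0.019 ± 0.043 (SE), or 1.01-fold (95% interval 0.946 to 1.08), with 0.0030 when knockdown array 1 was dropped and 0.037 when array 2 was. The interval of Gm2a holds no fall of the size seen for Hexa. Hexa minus Gm2a within each array was 0.21, 0.098 and 0.099 with empty vector and -0.19, -0.078 and -0.098 with knockdown, a difference of -0.26 between the 2 changes. Against the other members this difference lay between -0.30 (Gla) and -0.15 (Galc), and in all 8 pairs the groups did not overlap, so it is not particular to Gm2a. Hexa was taken for these pairs after its values were seen, so no test is given.

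The sialidase Neu1, which also acts on glycoproteins, stood at 0.0072, 0.026 and 0.11 with empty vector and at -0.029, -0.0072 and -0.032 with knockdown. The groups lay apart by a narrow margin, and empty vector array 3 was the highest. The change was -0.070 ± 0.045 (SE), or 0.953-fold (95% interval 0.887 to 1.02, limma adjusted p = 0.996), and -0.039 without empty vector array 3.

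On the globoside branch, Gla stood at -9.6e-04, -0.019 and -0.062 with empty vector and at 0.093, 9.6e-04 and 0.0010 with knockdown. The knockdown arrays were above the empty vector arrays, but 2 of them by very little, and knockdown array 1 was the high point. The change was 0.059 ± 0.046 (SE), or 1.04-fold (95% interval 0.968 to 1.12, limma adjusted p = 0.996), and 0.028 without knockdown array 1. Gla, whose window held the 2 long E-boxes printed above, had a mean signal that was not lower with knockdown. With array quality weights, which gave knockdown array 1 a weight of 33 against 0.136 and 0.441 for knockdown arrays 2 and 3, its change was 0.13 with a limma adjusted p of 0.0390, a value that rests in effect on 1 knockdown array.

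In sulfatide breakdown, the groups overlapped for both enzymes. Arsa stood at 0.040, -0.016 and 0.016 with empty vector and at -0.028, -0.041 and 0.11 with knockdown. Knockdown array 3 was the highest of the 6 and knockdown array 2 the lowest. The group means were both 0.013, the change was 7.4e-05 ± 0.053 (SE) with a 95% interval of 0.919- to 1.09-fold (limma adjusted p = 1.00), and its sign turned to -0.048 without knockdown array 3 and to -0.015 without empty vector array 2. Galc stood at -0.0095, 0.0095 and 0.061 with empty vector and at -0.080, -0.16 and 0.031 with knockdown. Its knockdown arrays 1 and 2 were the lowest of the 6, and array 3 fell within the range of the empty vector group. The change was -0.091 ± 0.058 (SE), or 0.939-fold (95% interval 0.856 to 1.03, limma adjusted p = 0.996), and was -0.045 when knockdown array 2 was dropped and -0.14 when array 3 was. In the latter fit the unadjusted limma p of Galc was 0.0332. Arsa also belongs to the sulfatases, which need the formylglycine-generating enzyme SUMF1 to become active, and Sumf1 is described with the rest of the pathway.

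Psap, the source of the saposins, stood at -0.0056, -0.0048 and -0.0019 with empty vector and at 0.0019, 0.064 and 0.050 with knockdown. Its empty vector arrays lay closer together than those of any other member (SD 0.0020, n = 3), and knockdown array 1 was only just above them. The change was 0.042 ± 0.040 (SE), or 1.03-fold (95% interval 0.965 to 1.10, limma adjusted p = 0.996), and 0.030 without knockdown array 2. Both lipid-presenting activators, Psap and Gm2a, thus had changes whose intervals spanned 0.

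At the ceramide end, Smpd1 stood at -0.0052, 0.0052 and -0.027 with empty vector and at -0.014, 0.027 and 0.033 with knockdown. The groups overlapped, with a change of 0.025 ± 0.040 (SE), or 1.02-fold (95% interval 0.954 to 1.08, limma adjusted p = 0.996). Asah1 stood at 0.091, 0.030 and -0.030 with empty vector and at -0.035, -0.14 and 0.057 with knockdown. Its arrays were the most scattered of any member with empty vector (SD 0.061, n = 3). The change was -0.068 ± 0.061 (SE), or 0.954-fold (95% interval 0.865 to 1.05, limma adjusted p = 0.996), with -0.020 when knockdown array 2 was dropped and -0.12 when array 3 was. Across Gm2a, Psap, Galc, Asah1, Smpd1, Gla, Neu1 and Arsa the 95% intervals of the main fit ran from 0.856-fold at the lowest to 1.12-fold at the highest, as measured by the probes. Each interval is for a single gene, so these ends are no joint bound on the genes.

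**Figure D3:**
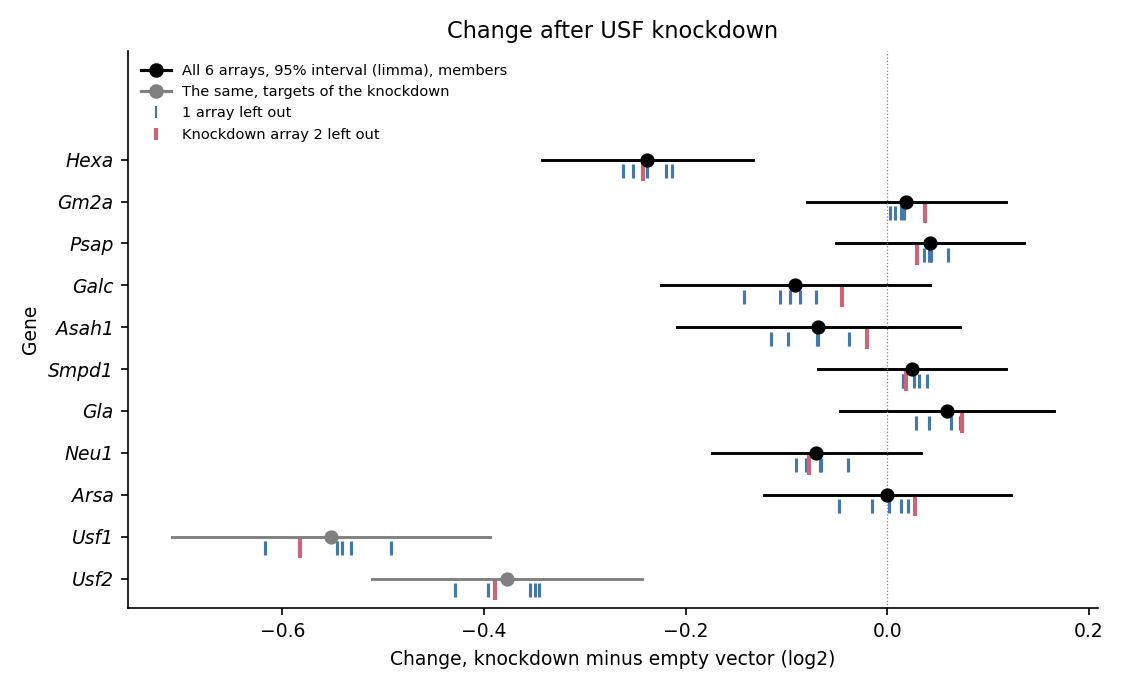
Change in log2 signal, knockdown minus empty vector (x axis), for the 9 members (black) and the 2 targets (grey), with limma 95% intervals; ticks below each point are the changes with 1 array left out, the red tick being the fit without knockdown array 2. The interval of Hexa (-0.34 to -0.13) lies below 0 and those of the other 8 members span it.

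By the pattern over the 6 arrays, the genes most like Hexa were the secretin receptor gene Sctr, Klhl24, which encodes an adaptor of a ubiquitin ligase, the kinase gene Mapk12 and B3galnt1. Their root mean square differences from Hexa were 0.0283, 0.0288, 0.0359 and 0.0370 in relative log2 signal over 6 arrays, against 0.0977 for Neu1, the nearest member. B3galnt1 encodes the enzyme that adds N-acetylgalactosamine to globotriaosylceramide to make globoside. Its change was -0.18 ± 0.04 (SE, limma adjusted p = 0.911). These 4 were picked for likeness to Hexa, so their changes are a description only.

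Of the other genes of sphingolipid breakdown, 20 were measured of 25 listed. In limma over all genes 0 passed, and at an unadjusted p under 0.05 there were 3, all lower after knockdown (15% of the list, beside 4.25% of all genes, and 2.65% of all genes for the lower direction alone). The median change was -0.019. Sumf1 was at 0.059, 0.044 and 0.14 with empty vector and at -0.044, -0.15 and -0.10 with knockdown, a change of -0.18 ± 0.05 (SE). Sgpl1, the lyase that irreversibly splits sphingosine 1-phosphate and so ends the pathway, was at 0.13, 0.11 and 0.049 against -0.064, -0.049 and -0.070, a change of -0.16 ± 0.04 (SE). Sgpp2, a phosphatase of sphingosine 1-phosphate, had a change of -0.14 ± 0.05 (SE). Its unadjusted limma p stayed under 0.05 in 3 of 6 fits with 1 array dropped and was 0.126, 0.103 and 0.0898 without empty vector array 2, empty vector array 3 and knockdown array 1. Groups did not overlap for 4 of the 20, beside 10.3% of all genes. These 3, already picked by p, had knockdown lower (5.95% of all genes). Smpd3, named only for this count, had knockdown higher (4.33%), with a change of 0.046 ± 0.040 (SE). The limma adjusted p of each of the 4 was 0.996. Neu4, another sialidase, had a change of 0.20 ± 0.11 (SE) and 0.069 without knockdown array 2, where it stood at 0.39. Glb1, the beta-galactosidase that turns GM1 into GM2 one step before HEXA, and named outside the rule for its place in the route, had a change of -0.040 ± 0.041 (SE). Without knockdown array 3 the count of 3 became 5, where 7.41% of all genes were under the same p.

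Sphingolipid synthesis, with 37 genes measured of 39 listed, had 0 genes past the threshold over all genes in limma and 2 at an unadjusted p under 0.05 (5.41% of the list), 1 in each direction, with a median change of 0.018. B3galnt1, described above, was not in this list. A4galt, which makes the globotriaosylceramide that alpha-galactosidase A degrades, stood at 0.084, 0.045 and 0.044 with empty vector and at -0.080, -0.044 and -0.10 with knockdown, a change of -0.13 ± 0.04 (SE). The ceramide synthase gene Cers3 was at -0.027, -0.10 and -0.025 against 0.025, 0.040 and 0.13, a change of 0.12 ± 0.05 (SE). The unadjusted limma p of Cers3 stayed under 0.05 in 1 of 6 fits with 1 array dropped, that without knockdown array 2. Sgms1, a sphingomyelin synthase, had a change of 0.11 ± 0.05 (SE), or 0.16 without knockdown array 2, where its unadjusted limma p was also under 0.05. Kdsr, which acts early in sphingoid base synthesis, had a change of -0.094 ± 0.043 (SE). The limma adjusted p was 0.996 for each of these 4. The count of 2 was 5 when knockdown array 2 was dropped (7.53% of all genes under the same p), 4 when array 3 was (7.41%), and 1 when knockdown array 1 or any single array of the empty vector group was. CACGTG was in the upstream window of 5 of the 33 synthesis genes and 4 of the 19 other breakdown genes that had a RefSeq window, beside 6.86% of 27025 genes, all starts of a gene counted together.

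**Figure D4:**
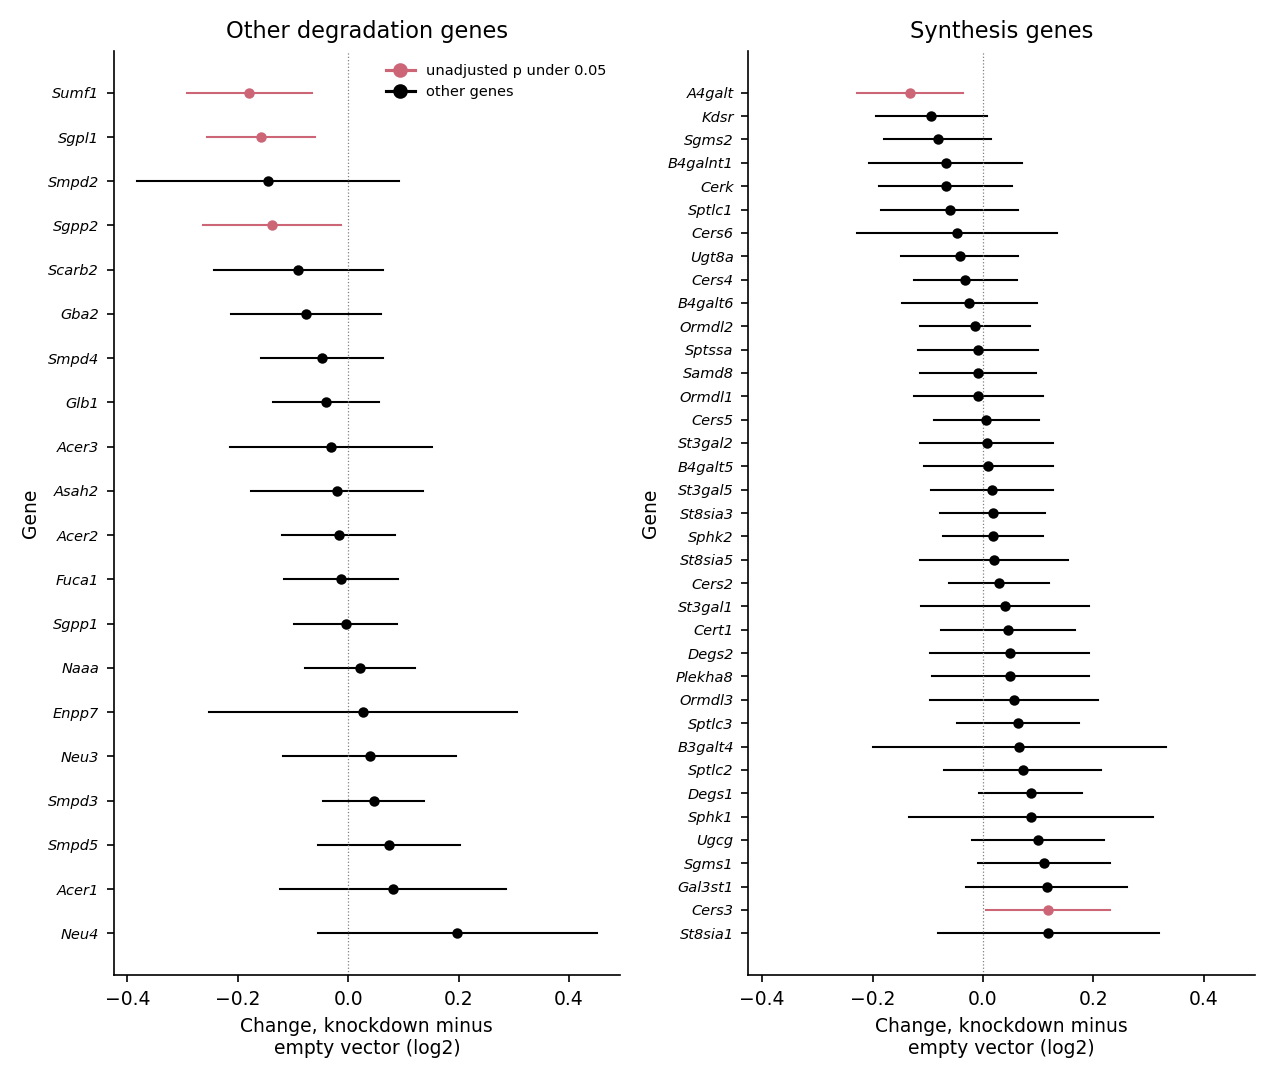
Change in log2 signal, knockdown minus empty vector (x axes), with limma 95% intervals, for 20 other breakdown genes (left) and 37 synthesis genes (right); red marks an unadjusted p under 0.05. Red points are Sumf1, Sgpl1 and Sgpp2 on the left and A4galt and Cers3 on the right.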

How the data were processed

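RNA of 6 Neuro2a samples, 3 per vector group by the sample titles, was read on Mouse Gene 1.0 ST arrays from Affymetrix after amplification with Ambion's WT Expression kit, per the labels' protocols. The authors deposited 1 table of 22891 transcript clusters on a scale read here as log2. Each cluster is centred on its median over the 6 arrays, to within 5e-07. The sources used here do not give the log base, background correction or normalization. The scale and the brightness class were read from single-precision steps (tolerance 0.05 of a step, values under 0.001 in size left out), which can place some dimmer clusters in the brighter class by chance. The platform annotation gave 18087 clusters 1 symbol, 1145 several and 3659 none. Clusters of a gene were averaged, which affected 861 genes and no member.

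Changes were fitted in R 4.3.3 with limma 3.58.1 (lmFit, eBayes) on all 16583 genes, with 4 residual and 3.79 prior degrees of freedom, and p-values were adjusted by Benjamini-Hochberg. The fit was tested on simulated data. The number of arrays limits the precision (median standard error 0.0561). Promoter searches and figures used Python 3.11.15 and matplotlib 3.10.9. Members and lists were chosen with earlier results of these data known. Named genes are the 9 members, both targets, list genes at an unadjusted p under 0.05 (or the 4 smallest p) and the 4 genes most like the member with the smallest p. The alternatives left out each array, or used a replicate block, quantile normalization, median centring, the brighter class alone, robust variance, array weights or single clusters. The intensity trend was not fitted, since levels are not kept.

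Same-numbered arrays of the groups had deviations from their group means that correlated at 0.003, 0.082 and 0.036 across genes. For differently numbered arrays the correlations lay between -0.094 and 0.053. The numbers were not taken to pair the samples, though these values do not settle the question.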

Additional observations from a re-analysis of the deposited data

How the results depend on the processing

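Over 13 alternatives, 228 of 241 gene changes kept their sign and their side of the threshold, 9 crossed it with array quality weights, and 4 turned sign. Those were Arsa (between -0.048 and 0.027 with 1 array left out, -0.036 with array weights) and Smpd1 (-0.0015 with array weights). With array weights, where knockdown array 1 outweighed the others (33 against at most 1.11), 2 members passed over all genes, 4 were at an unadjusted p under 0.05, both targets (2) passed, 1111 genes passed in all and 13 synthesis genes were at an unadjusted p under 0.05, where 26.3% of all genes were.

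Leaving out 1 array, the genes past the threshold numbered 0 to 1 (0 when knockdown array 1 or any 1 array of the empty vector group was dropped), the members at an unadjusted p under 0.05 1 to 2 (2 without knockdown array 3, Hexa and Galc, where 7.41% of all genes were), the other breakdown genes 2 to 5 and the synthesis genes 1 to 5. The synthesis count was also 5 after quantile normalization (5.38% of all genes) and 4 of 22 in the brighter class alone (7.69%), and the share of all genes lay between 2.23% and 7.69% over the alternatives other than array weights. With the replicate number as a block, 0 genes passed in all and 1 synthesis gene was at an unadjusted p under 0.05; the counts for the members, both targets and the other breakdown genes did not move. That block is no evidence of pairing. The correlations of deviations, 0.003 to 0.082 for same-numbered and -0.094 to 0.053 for differently numbered arrays, do not settle it. The cause of these differences was not tested. Galc and Arsa lay in the dimmer class, where a change may be harder to read, as did Usf1, Dbh, Sgpp2, Neu4, Cers3 and Sctr.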
